A study of Mus musculus with 8 samples.

Results

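The 10 genes described here encode sugar transporters of 2 families. They are the sodium-coupled SGLT genes Slc5a1, Slc5a2, Slc5a9 and Slc5a10 and the facilitative GLUT genes Slc2a1, Slc2a2, Slc2a3, Slc2a4, Slc2a5 and Slc2a9. They were chosen by symbol, all 10 were found among 23504 gene symbols, and all 10 passed the filter on low counts that left 14711 genes to test. RNA came from wild-type C57Bl6/J mice, from outer renal cortex dissected by hand, in 4 libraries (A, B, F and G) from mice on a high fat diet and 4 (I, J, L and M) from mice on a control diet. Both diets were started at 6 weeks of age and lasted 9 weeks, which puts the mice at 15 weeks. Neither the sex of the mice nor a separate mouse behind each library is stated, so every p-value here rests on the spread among libraries, which may be technical.

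SGLT proteins carry sugar into the cell together with sodium, using the sodium gradient, and in kidney they sit on the brush border of the proximal tubule. GLUT proteins let sugar pass down its own gradient, and in the tubule several of them sit on the blood side and release what was taken up. SGLT2 (Slc5a2) takes up most filtered glucose in the early proximal tubule and SGLT1 (Slc5a1) most of the rest further down, while GLUT2 (Slc2a2) is the main exit from early proximal cells.

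Total expected counts were 23503593 to 26291029 per high fat library and 26572175 to 30781585 per control library. Rn45s, the ribosomal RNA precursor, took 4.82% to 13.3% of counts in the high fat libraries, 1.23% to 5.70% in control I, L and M, and 50.3% in control J. It was therefore left out before normalisation, which leaves control J with 13993652 counts, the fewest of the 8 libraries. Levels are given as CPM, counts scaled to a common library size after TMM normalisation without Rn45s. Between genes they are compared only as rescaled FPKM, which also divides by transcript length. The marker genes of proximal tubule were abundant in every library: 8 markers of its first segments, S1 and S2, summed to 29110 to 29790 CPM on the high fat diet and to 28910 to 29310 CPM on the control diet.

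Of the 10 transporter genes, Slc5a10 rose on the high fat diet, Slc2a1 and Slc2a4 fell, and 7 did not pass at a Benjamini-Hochberg adjusted p under 0.05 (edgeR quasi-likelihood test). Over all 14711 tested genes 9.99% were called, 4.86% higher and 5.13% lower, and 27.4% had an edgeR p under 0.05 before adjustment. Leaving out 1 library at a time gave 2 or 3 members called, and the one that was lost was Slc2a4. The median log2 change was 0.06 over the 10 members and -0.002 over all tested genes. With so few genes, no test was made of whether the family as a group differs from other genes.

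Per transcript length, the genes fell into the same order on both diets except for 1 exchange. Slc5a2 stood first, at 326 ± 13.8 rescaled FPKM on the high fat diet and 311 ± 1.96 on the control diet (SD, n = 4 each). Slc2a2 followed at 118 ± 3.91 on the high fat diet and 115 ± 4.61 on the control diet, and Slc5a10 came next at 107 ± 8.57 on the high fat diet and 72.5 ± 7.11 on the control diet. On the high fat diet the lowest library of Slc2a2 (115 rescaled FPKM) was just above the highest of Slc5a10 (114), whereas on the control diet the 2 genes were far apart.

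The middle of the order was held by Slc2a5, at 34.0 ± 3.74 rescaled FPKM on the high fat diet and 32.7 ± 3.89 on the control diet, and by Slc5a1, at 21.8 ± 1.29 on the high fat diet and 21.0 ± 0.805 on the control diet. Slc2a1, Slc2a4 and Slc5a9 formed a cluster between 7.35 and 9.22 rescaled FPKM in high fat libraries and between 8.22 and 12.1 in control libraries. Within this cluster each gene overlapped the next in the order on both diets, and Slc2a1 was ahead of Slc2a4 on the control diet only. Slc2a9 was lower, at 5.98 ± 0.275 on the high fat diet and 5.64 ± 0.190 on the control diet, and Slc2a3 was last, at 0.428 ± 0.0416 on the high fat diet and 0.352 ± 0.0374 on the control diet. Apart from that cluster, no gene's libraries overlapped those of its neighbour in the order.

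**Figure D1:**
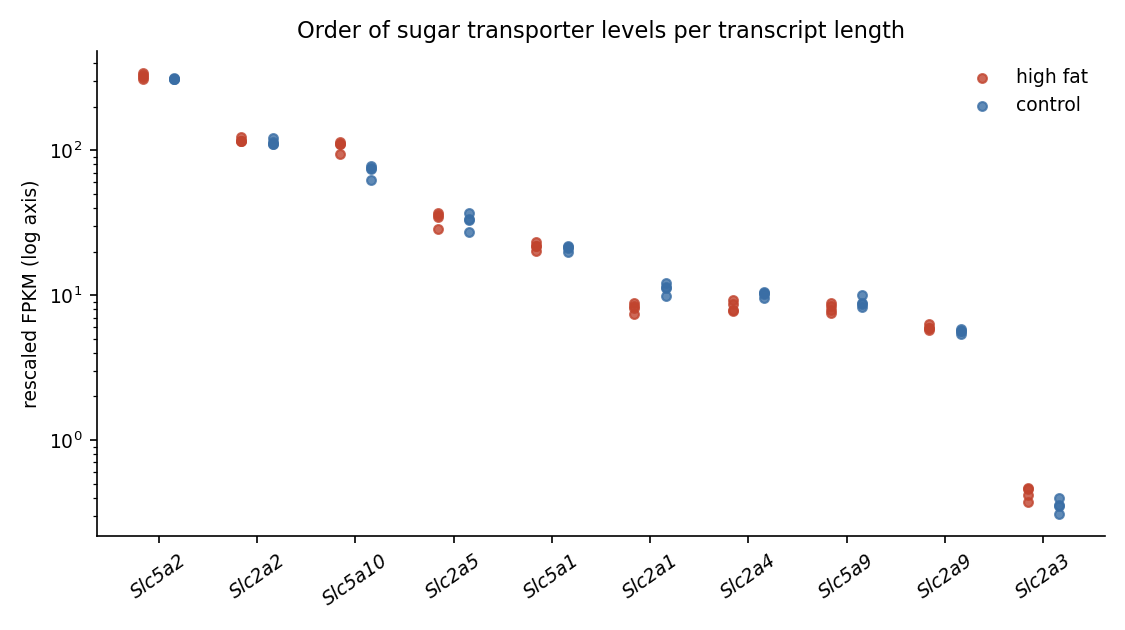
Rescaled FPKM (log axis) of the 10 transporter genes in each library, ordered by their mean over 8 libraries, with high fat libraries to the left of control libraries for each gene. Slc5a2 is near 320 and Slc2a3 near 0.4, and Slc5a10 is the gene of the upper group whose diets separate.

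Slc5a2, the target of the drugs used to lower blood glucose by glucose loss in urine (chromosome 7, 128265657 to 128272430 in GENCODE M21 on GRCm38), did not pass. It was at 706, 733, 689 and 758 CPM in high fat A, B, F and G and at 694, 688, 684 and 688 CPM in control I, J, L and M. The high fat libraries (SD 30.3 CPM around a mean of 721) were more spread than the control libraries (SD 4.06 CPM around 688) and overlapped them. High fat over control gave a log2 fold change of 0.07 ± 0.05 (SE), with a 95% interval of -0.05 to 0.18 and adjusted p = 0.43 in edgeR. Slc5a2 shares 597 bases of exon with BC017158 on the other strand, and the sources used here do not say whether counting used strand. BC017158 was at 28.2 ± 1.77 CPM on the high fat diet and 26.7 ± 0.507 on the control diet (SD, n = 4 each).

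Slc5a1, the high-affinity glucose and galactose carrier of the late proximal tubule and the intestine (chromosome 5, 33104219 to 33162870), was at 90.9, 85.1, 84.3 and 78.7 CPM in high fat A, B, F and G. In control I, J, L and M it was at 84.5, 83.0, 82.2 and 77.3 CPM. The diets overlapped in part: high fat A and B were above all control libraries, and control M was below all high fat libraries. Its log2 fold change was 0.05 ± 0.06 (SE), with a 95% interval of -0.07 to 0.18 and adjusted p = 0.60 in edgeR.

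Slc5a9 encodes SGLT4, a sodium-coupled carrier of mannose and other hexoses (chromosome 4, 111875375 to 111902918). It was at 34.1, 38.1, 32.7 and 36.3 CPM in high fat A, B, F and G and at 37.3, 35.6, 43.2 and 37.9 CPM in control I, J, L and M. The groups overlapped, with high fat B above 3 of the 4 control libraries. It did not pass either, with a log2 fold change of -0.13 ± 0.07 (SE), a 95% interval of -0.29 to 0.03 and adjusted p = 0.29 in edgeR.

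Slc5a10 was the member with the largest change. It encodes SGLT5, a sodium-coupled carrier of mannose and fructose found largely in kidney (chromosome 11, 61672781 to 61720826). RefSeq lists 2 start sites for it, so their upstream windows (250 bases before to 50 after the start, build GRCm38.p6, minus strand) are shown, with that of Slc2a1 (chromosome 4, plus strand), the other strongly changed member with an entry. Motifs of 6 letters are in capitals: the GC box GGGCGG and the TATA box TATAAA, each on either strand.

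Slc5a10 start 1 (chr11:61720750-61721049): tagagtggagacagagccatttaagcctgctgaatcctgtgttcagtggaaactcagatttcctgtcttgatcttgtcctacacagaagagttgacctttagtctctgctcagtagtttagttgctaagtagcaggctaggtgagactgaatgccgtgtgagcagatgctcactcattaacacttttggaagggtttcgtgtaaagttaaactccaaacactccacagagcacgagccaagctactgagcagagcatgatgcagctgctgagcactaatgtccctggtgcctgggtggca
Slc5a10 start 2 (chr11:61719936-61720235): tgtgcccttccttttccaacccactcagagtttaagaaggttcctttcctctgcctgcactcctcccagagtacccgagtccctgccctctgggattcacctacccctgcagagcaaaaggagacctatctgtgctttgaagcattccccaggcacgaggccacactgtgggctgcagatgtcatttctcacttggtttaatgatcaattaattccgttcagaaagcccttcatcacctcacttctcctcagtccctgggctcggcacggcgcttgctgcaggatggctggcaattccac
Slc2a1 (chr4:119108495-119108794): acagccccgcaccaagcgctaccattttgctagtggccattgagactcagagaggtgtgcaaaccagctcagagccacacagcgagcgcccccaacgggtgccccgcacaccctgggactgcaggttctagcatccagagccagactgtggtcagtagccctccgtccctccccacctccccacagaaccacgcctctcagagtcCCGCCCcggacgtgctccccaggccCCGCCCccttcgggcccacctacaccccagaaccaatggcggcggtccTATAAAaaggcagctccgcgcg

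Neither Slc5a10 window holds a motif searched. The Slc2a1 window holds 2 GC boxes and 1 TATA box. Of 32851 promoter windows of the same length in the table, 35.7% hold the GC box and 13.6% the TATA box. In all, 6 of the 10 members had an entry, and a match in the letters is a description, not a site.

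Slc5a10 RNA was at 246, 243, 252 and 210 CPM in high fat A, B, F and G, against 163, 138, 172 and 168 CPM in control I, J, L and M. Every high fat library was above every control library, with high fat G the lowest of its diet and control J the lowest of its own. The means were 238 ± 19.0 CPM on the high fat diet and 160 ± 15.5 CPM on the control diet (SD, n = 4 each), a log2 fold change of 0.57 ± 0.08 (SE), or 1.48-fold, with adjusted p = 0.0033 in edgeR. Of all tested genes 17.5% had diets that did not overlap. Without control J the log2 fold change of Slc5a10 was 0.50 with adjusted p = 0.0070 in edgeR, and leaving out high fat G as well gave 0.56 with adjusted p = 0.0066 in edgeR.

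Slc5a10 shares exon bases with genes on the other strand: 393 with Fam83g, which is 16.6% of its 2365 exon bases, and 4 with Grap. Its expected counts were not whole numbers in any library. The same held for Slc5a2. Counts were not whole in 87.5% of libraries for Slc2a2, which shares 0 exon bases with its overlapping gene, and in 75% for Slc5a9. In the remaining members this was 0% to 37.5%. Fam83g did not pass, at 42.4 ± 6.91 CPM on the high fat diet and 35.3 ± 4.57 CPM on the control diet (SD, n = 4 each; log2 fold change 0.26 ± 0.12 SE, adjusted p = 0.19 in edgeR). How reads in the shared bases were split cannot be told from the counts.

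The authors' deposited table of differential expression by gene symbol lists Slc5a10 at a fold of 1.49 (high fat over control), and the authors' deposited table by Ensembl gene also gives 1.49. In the authors' deposited table by Ensembl gene, Slc5a10 had 97.0, 89.2, 103 and 85.2 FPKM in high fat A, B, F and G, against 64.6, 47.2, 68.8 and 69.3 FPKM in control I, J, L and M. The same 3 members called here are the 3 that each of these tables lists, and all listed genes have a posterior probability of equal expression of at most 0.05. In the authors' deposited table by Ensembl gene, Slc2a1 had a fold of 0.740 and Slc2a4 a fold of 0.821. The FPKM of that table is separate from the FPKM by gene symbol, in which control J is low. In the authors' deposited table by Ensembl gene, control J had 7.58 FPKM of Slc2a1 and control I 7.57. By gene symbol these libraries had 5.12 and 9.42 FPKM of Slc2a1. For Slc5a10, control J was the lowest control library in the authors' deposited table by Ensembl gene, as it was in CPM.

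**Figure D2:**
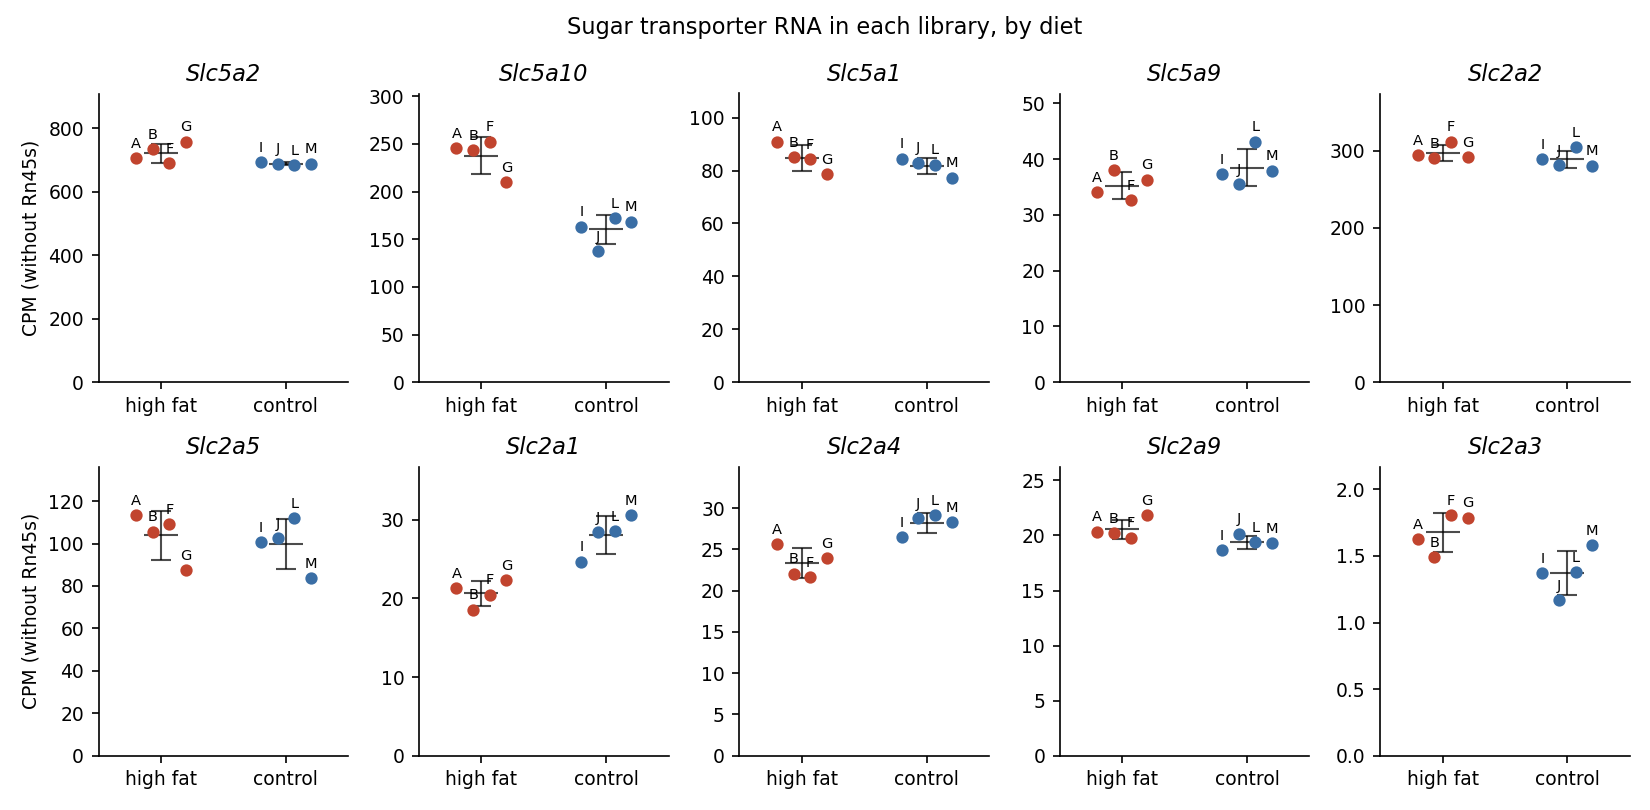
CPM without Rn45s of each transporter gene, with points for single libraries marked by their letter, high fat left of control, and black bars for the mean and SD of 4 libraries. The diets separate in Slc5a10 (210 to 252 against 138 to 172 CPM), Slc2a1 and Slc2a4, and overlap in the other 7 genes.

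Slc2a2, the GLUT2 gene (chromosome 3, 28697903 to 28731359), was at 295, 291, 312 and 292 CPM in high fat A, B, F and G and at 289, 281, 305 and 281 CPM in control I, J, L and M. Control L was above 3 of the 4 high fat libraries. Its log2 fold change was 0.04 ± 0.05 (SE), with a 95% interval of -0.07 to 0.15 and adjusted p = 0.65 in edgeR. GLUT2 is also a liver gene, and 6 hepatocyte markers summed to 11.1 to 19.4 CPM on the high fat diet and 14.5 to 21.6 CPM on the control diet, with Alb at most 13.7 CPM in any library and Ahsg at 0 in all 4 high fat and 3 control libraries.

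Slc2a5 encodes GLUT5, the fructose carrier of the brush border in kidney and intestine (chromosome 4, 150119283 to 150144169). It was at 113, 106, 109 and 87.4 CPM in high fat A, B, F and G and at 101, 103, 112 and 83.6 CPM in control I, J, L and M. High fat G and control M were the low libraries of their diets. For this gene the log2 fold change was 0.06 ± 0.10 (SE), with a 95% interval of -0.16 to 0.27 and adjusted p = 0.74 in edgeR, and this was the widest interval among the members above 2 CPM.

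Slc2a9 encodes GLUT9, which carries urate (chromosome 5, 38349273 to 38503143). It was at 20.4, 20.2, 19.8 and 21.9 CPM in high fat A, B, F and G and at 18.7, 20.2, 19.4 and 19.3 CPM in control I, J, L and M, and the diets overlapped. The log2 fold change was 0.09 ± 0.06 (SE), with a 95% interval of -0.04 to 0.22 and adjusted p = 0.38 in edgeR. Of 9 genes of urate transport and breakdown listed with it, 8 were tested and none passed. In edgeR the unadjusted p was under 0.05 for 2 of them, Slc22a6 and Xdh, a share near the 27.4% of all tested genes, and the calls were 1 in DESeq2 and 0 in limma-voom.

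Slc2a1 fell on the high fat diet. It encodes GLUT1, a glucose carrier present in most tissues (chromosome 4, 119108711 to 119137983). In kidney GLUT1 is mainly on the blood side of late proximal and distal tubule cells and in endothelium. Slc2a1 was at 21.3, 18.6, 20.5 and 22.3 CPM in high fat A, B, F and G, against 24.7, 28.4, 28.5 and 30.6 CPM in control I, J, L and M. All high fat libraries were below all control libraries, and control I was nearest to them. The means were 20.7 ± 1.60 CPM on the high fat diet and 28.1 ± 2.46 CPM on the control diet (SD, n = 4 each), a log2 fold change of -0.44 ± 0.08 (SE), or 0.737-fold, with adjusted p = 0.0091 in edgeR. The call held without each library in turn, with log2 fold changes of -0.50 to -0.39 and an adjusted p of at most 0.0264 in edgeR.

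Slc2a4 fell as well, but less firmly. It encodes GLUT4, the insulin-responsive glucose carrier of muscle and fat (chromosome 11, 69942539 to 69948188). It was at 25.6, 22.1, 21.6 and 23.9 CPM in high fat A, B, F and G, against 26.5, 28.8, 29.1 and 28.3 CPM in control I, J, L and M. The diets did not overlap, though high fat A and control I were close. The means were 23.3 ± 1.83 CPM on the high fat diet and 28.2 ± 1.18 CPM on the control diet (SD, n = 4 each), a log2 fold change of -0.27 ± 0.07 (SE), or 0.827-fold, with adjusted p = 0.031 in edgeR. The call was lost without high fat B, F or G and without control J, L or M, with log2 fold changes of -0.29 to -0.24 and an adjusted p of up to 0.0901 in edgeR (without high fat F), and it was kept without high fat A or control I.

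Slc2a3, the GLUT3 gene of neurons and blood cells (chromosome 6, 122727809 to 122801640), was the rarest member. Its expected counts were 36, 32, 44 and 44 in high fat A, B, F and G and 35, 15, 39 and 50 in control I, J, L and M, or 1.49 to 1.81 CPM on the high fat diet and 1.17 to 1.58 CPM on the control diet. Only control M reached into the high fat range. The log2 fold change was 0.26 ± 0.15 (SE), with a 95% interval of -0.07 to 0.60 and adjusted p = 0.32 in edgeR, so at this depth neither no change nor a rise of the size seen in Slc5a10 lay outside its interval.

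**Figure D3:**
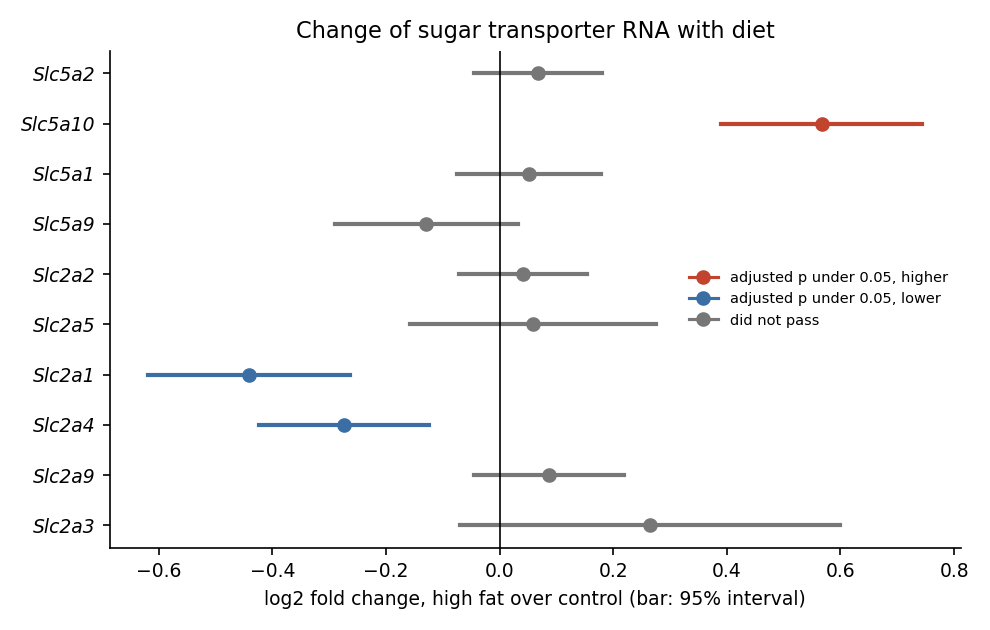
Log2 fold change of high fat over control for each transporter gene (points) with its 95% interval (bars). Slc5a10 lies at 0.57, Slc2a1 at -0.44 and Slc2a4 at -0.27, and the intervals of the other 7 genes include 0.

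The 7 members that did not pass had log2 fold changes between -0.13 and 0.26, and all 7 intervals included 0. For Slc5a2, Slc5a1 and Slc2a2 the upper bounds were 0.18, 0.18 and 0.15, below the lower bound of Slc5a10, which was 0.39. The median log2 change of all tested genes in the same length decile as a member ran from -0.01 to 0.02 over the 10 members, and in the same abundance decile from -0.03 to 0.05.

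Ratios within a library do not depend on scaling between libraries, and are given without a test. The ratio of Slc5a10 to Slc5a2 in FPKM was 0.348, 0.331, 0.366 and 0.277 in high fat A, B, F and G, against 0.235, 0.200, 0.252 and 0.245 in control I, J, L and M. Slc5a10 to Slc5a1 was 4.69 to 5.26 on the high fat diet and 2.91 to 3.83 on the control diet. These ratios did not overlap between the diets. Neither did that of Slc2a1 to Slc2a2, at 0.0638 to 0.0765 on the high fat diet and 0.0853 to 0.109 on the control diet. Slc5a10 and Slc2a1 had already separated by diet, and the genes they were divided by changed little. The separation of these ratios is therefore no independent support.

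Among the 4 SGLT genes Slc5a10 made up 23.2% ± 2.04 of the summed FPKM on the high fat diet and 17.5% ± 1.43 on the control diet (SD, n = 4 each). Slc5a2 made up 70.4% ± 2.23 on the high fat diet and 75.3% ± 1.39 on the control diet. Shares depend on the whole sum, and the level of Slc5a2 itself was not lower on the high fat diet (326 against 311 rescaled FPKM). The other ratios overlapped: Slc2a2 to Slc5a2 was 0.338 to 0.397 on the high fat diet and 0.358 to 0.391 on the control diet, and Slc5a1 to Slc5a2 was 0.0590 to 0.0733 on the high fat diet and 0.0639 to 0.0692 on the control diet. Within the high fat diet the libraries differed in a way that crossed the genes. High fat G had the highest Slc5a2, Slc2a9 and Slc2a1 of its diet and the lowest Slc5a10, Slc5a1 and Slc2a5.

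**Figure D4:**
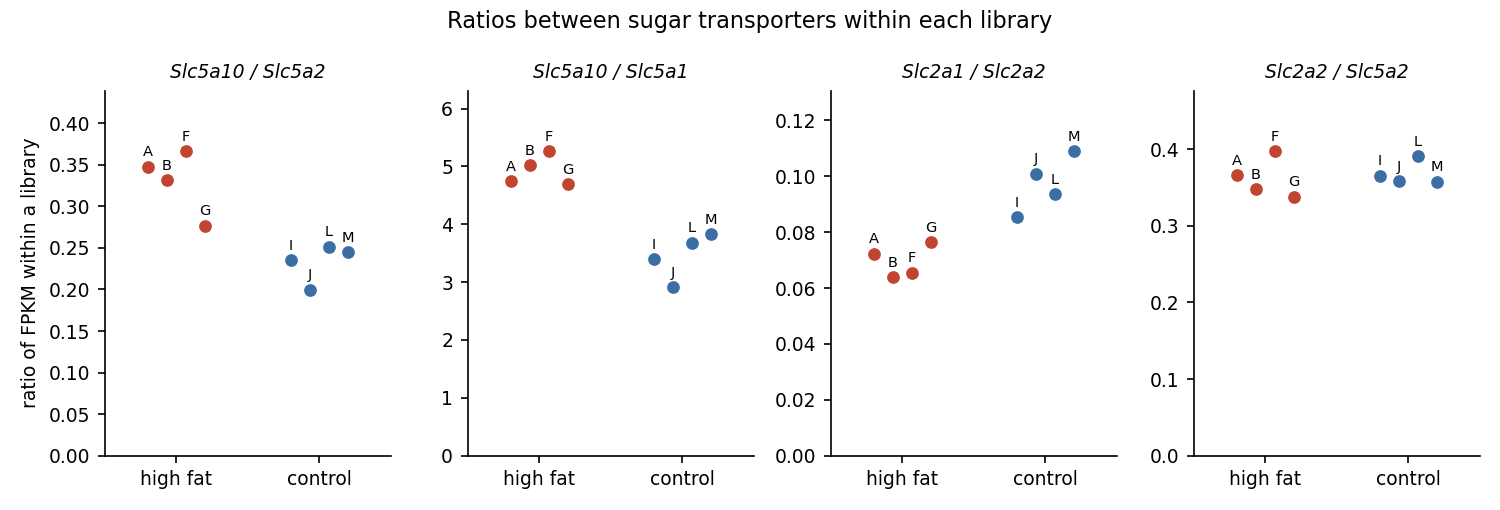
Ratios between pairs of transporter genes in deposited FPKM by gene symbol within each library, high fat left of control. Slc5a10 to Slc5a2, Slc5a10 to Slc5a1 and Slc2a1 to Slc2a2 separate by diet, and Slc2a2 to Slc5a2 (0.338 to 0.397 against 0.358 to 0.391) does not.

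In bulk tissue, fewer cells of a type and less RNA per cell cannot be told apart, so cell type markers are set beside these results. Of 8 S1 and S2 markers, Slc6a19, Slc4a4 and Slc34a1 rose, Cubn fell and 4 did not pass in edgeR, DESeq2 called 3 higher and 3 lower, and limma-voom 3 higher and 1 lower. The list's summed CPM is given above. Of 8 markers of the last segment, S3, Slco1a1 and Acy3 rose, Slc7a12, Slc22a13 and Slc7a13 fell and 3 did not pass. The S3 list summed to 3214 to 3703 CPM on the high fat diet and 2335 to 3554 CPM on the control diet, with control M inside the high fat range, and no proximal marker was at 0 in any library. The part of these shifts in the rise of Slc5a10 was not tested.

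For Slc2a1, 5 thick ascending limb markers summed to 2987 to 3711 CPM on the high fat diet and 3681 to 4372 CPM on the control diet, and Slc12a1, Kcnj1 and Cldn16 of them fell. Of 7 distal tubule and collecting duct markers Scnn1g fell and 6 did not pass, while DESeq2 called 2 lower and limma-voom 1 (1033 to 1320 CPM on the high fat diet and 1085 to 1265 CPM on the control diet). No marker of these 2 lists was at 0. Endothelial markers summed to 464 to 495 CPM on the high fat diet and 447 to 482 CPM on the control diet, with 0 of 7 called and 0 at an unadjusted p under 0.05 in edgeR, and 0 called in DESeq2 and limma-voom. Red cell markers summed to 808 to 1049 CPM in high fat A, B and F and to 4196 CPM in high fat G, against 742 to 801 CPM in control I, L and M and 1837 CPM in control J, and 0 of 6 were called in edgeR, DESeq2 or limma-voom, though 2 had an edgeR p under 0.05 before adjustment (27.4% of all tested genes did) and DESeq2 gave no adjusted p for 3. Leaving out high fat G and control J together left Slc2a1 at a log2 fold change of -0.48 with adjusted p = 0.038 in edgeR. The same fit gave Slc2a4 a log2 fold change of -0.28 with adjusted p = 0.11 in edgeR. The part of red cell content in the change of any member was not tested. The part of the thick ascending limb shift in the fall of Slc2a1 was not tested either.

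For Slc2a4, the fat gene Adipoq and the muscle gene Ckm were near 0. Adipoq reached at most 0.0466 CPM in high fat libraries and 0.274 CPM in control libraries. Ckm reached at most 0.0466 CPM in high fat libraries and 0.228 CPM in control libraries. Muscle markers together gave 0.467 to 0.813 CPM on the high fat diet and 0.626 to 1.14 CPM on the control diet, and Myh4 was at 0 in 4 high fat and 3 control libraries. The 7 adipocyte markers gave 37.9 to 41.7 CPM on the high fat diet and 31.7 to 39.2 CPM on the control diet, nearly all of it Fabp4, which endothelium also expresses, and Lep was at 0 in 3 libraries of each diet. Of 4 smooth muscle markers Acta2 fell and 3 did not pass, and the list summed to 85.0 to 106 CPM on the high fat diet and 101 to 127 CPM on the control diet. The part of fat, muscle or smooth muscle in the fall of Slc2a4 was not tested. For Slc2a3, white blood cell markers summed to 65.9 to 84.7 CPM on the high fat diet and 54.2 to 76.6 CPM on the control diet, with 0 of 5 tested markers called or at an unadjusted p under 0.05 in edgeR, and 0 called in DESeq2 and limma-voom. Of 5 podocyte markers 0 were called in edgeR, DESeq2 or limma-voom, and 2 had an edgeR p under 0.05 before adjustment, as did 27.4% of all tested genes.

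Of 11 further transporters of sugars and inositol, 8 were tested, of which 1 was called lower in edgeR and the other 7 were not called. The one that fell was Slc5a3, the sodium-coupled inositol carrier, at 280, 251, 265 and 264 CPM in high fat A, B, F and G, against 574, 428, 286 and 374 CPM in control I, J, L and M. The high fat libraries were tight and the control libraries spread widely. The log2 fold change was -0.65, with adjusted p = 0.031 in edgeR, and the call was lost without control J and without any 1 of the high fat libraries, where the log2 fold change was -0.68 to -0.62 and the adjusted p up to 0.0745 in edgeR. Slc5a3 shares 159 bases of exon, 1.46% of its own, with Mrps6 on the same strand. Mrps6 was at 18.8 ± 2.31 CPM on the high fat diet and 26.1 ± 1.83 CPM on the control diet (SD, n = 4 each). Mrps6 was itself called lower (log2 fold change -0.47 ± 0.09 SE, adjusted p = 0.010 in edgeR).

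Of 8 partners and regulators of tubular glucose transport, Txnip rose and 7 did not pass in edgeR. Txnip encodes an arrestin-like protein that is induced by glucose and lowers glucose uptake through GLUT1 and GLUT4. It was at 473, 540, 289 and 333 CPM in high fat A, B, F and G, against 303, 268, 236 and 226 CPM in control I, J, L and M, so high fat F lay within the control range. The log2 fold change was 0.66, with adjusted p = 0.038 in edgeR. With 1 library left out at a time, the call was kept only without high fat F or high fat G (adjusted p = 0.017 and 0.039 in edgeR). It was lost without any other library, with an adjusted p of up to 0.0891 in edgeR (without control L). Pdzk1ip1, whose product MAP17 activates SGLT2, was at 430 CPM on the high fat diet and 462 CPM on the control diet (adjusted p = 0.44 in edgeR).

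Of 10 enzymes that act first on transported sugars or release glucose, 9 were tested and none passed in edgeR or limma-voom, while DESeq2 gave 2 higher and 1 lower, and no adjusted p for 1. Before adjustment 4 had an edgeR p under 0.05, against 27.4% of all tested genes. They were Akr1b3 (aldose reductase, log2 fold change 0.67, adjusted p = 0.052 in edgeR), Hk1 (hexokinase 1, -0.27, adjusted p = 0.062), G6pc (glucose-6-phosphatase, 0.38, adjusted p = 0.088) and its partner transporter Slc37a4 (0.17, adjusted p = 0.13). The median log2 change was 0.08 over these enzymes, -0.07 over the partners and regulators and -0.02 over the further transporters. Khk, the fructose kinase, was at 473 CPM on the high fat diet and 443 CPM on the control diet (adjusted p = 0.29 in edgeR).

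The genes whose library pattern was nearest to each called member were named by the smallest root mean square difference in log2 CPM over the 8 libraries, each gene taken relative to its own mean, among 10170 other genes. For Slc5a10 they were Ttc39c, Fnip2 and Csad, at 0.071, 0.074 and 0.078. For Slc2a1 they were Actb (beta-actin), Cnn2 (calponin 2) and Flna (filamin A), at 0.050, 0.055 and 0.062. For Slc2a4 they were Lmo7, Rsad1 and Dcbld2, at 0.025, 0.047 and 0.049. Actb was at 1156 ± 74.3 CPM on the high fat diet and 1513 ± 150 CPM on the control diet (SD, n = 4 each).

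**Figure D5:**
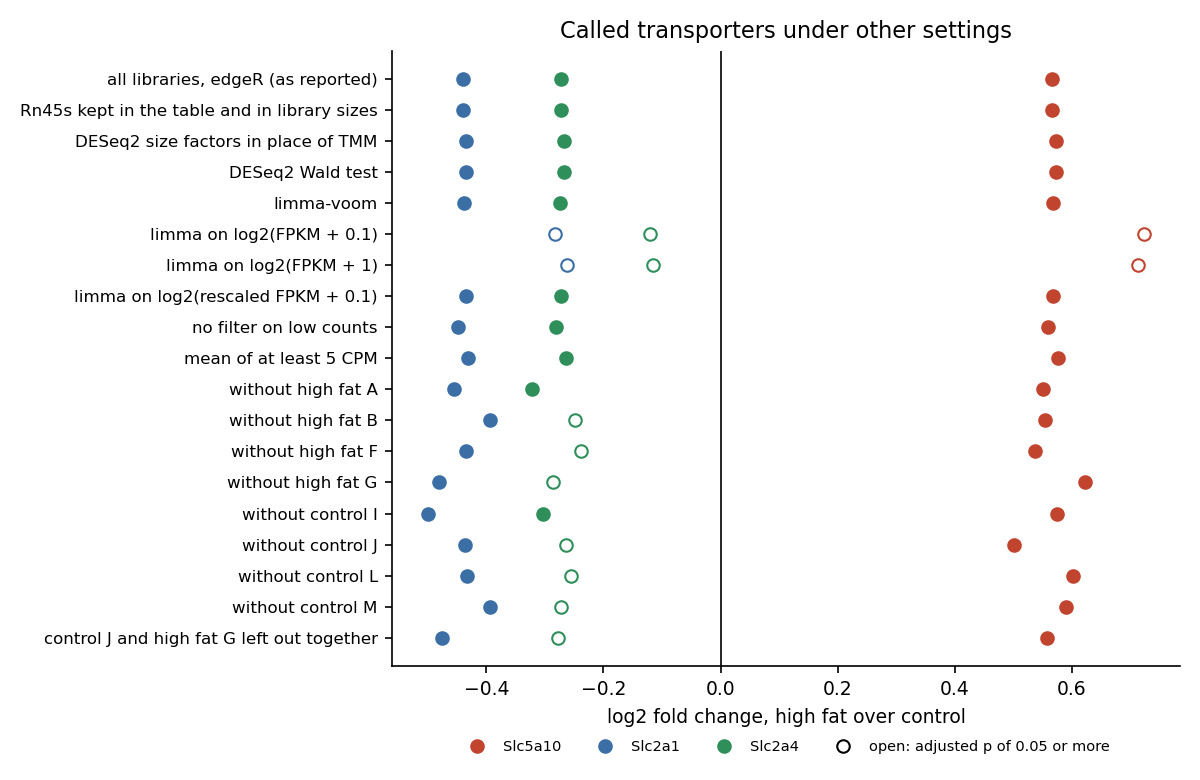
Log2 fold change of Slc5a10, Slc2a1 and Slc2a4 as reported (top) and under each other setting, filled where the adjusted p was under 0.05 and open where it was not. Slc5a10 and Slc2a1 stay filled except with deposited FPKM by gene symbol, and Slc2a4 is open in 9 settings.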

How the data were processed

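Renal cortex RNA of 8 mouse libraries, 4 per diet, was made into libraries with a TruSeq kit with Ribo-Zero Gold, per the labels' protocols. The submitters' processing notes name CASAVA 1.8.2, RSEM 1.2.9 and the build mm10. Expected counts from RSEM, deposited by the authors for each gene symbol, were rounded to whole numbers. The deposited FPKM values by gene symbol have Rn45s in their denominator, which was checked from counts and totals. This FPKM was therefore rescaled to the TMM library sizes without Rn45s. The authors' deposited tables of comparisons hold a fold (ratio, high fat over control), a posterior probability as a score, and, in the Ensembl table, FPKM. The sources used here do not give the tool behind them. Counts without Rn45s were tested with edgeR 4.0.16 in R 4.3.3 (TMM, filterByExpr, quasi-likelihood F test, diet only). A gene was called at an adjusted p under 0.05 over all genes tested, and the test was checked on simulated data. Standard errors are the log2 fold change divided by the root of F. Alternatives were DESeq2 1.42.0, its size factors, limma 3.58.1 with voom or on log2 FPKM (pseudocounts 0.1 and 1, mean of at least 0.5), Rn45s kept, other filters and libraries left out. The rescaled FPKM fit was added after the data were seen, and so was the use of these alternatives on Slc5a3 and Txnip.

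All 10 members are named, with up to 3 called genes of smallest p per list and the 3 genes nearest in pattern to each called member (mean of at least 5 CPM, log2 of CPM plus 0.5). Other list genes, such as Pdzk1ip1, Khk and those at an unadjusted p under 0.05, were named after their values were seen. Some genes of the list of partners and regulators are not reported here and were left out of its counts. Members and lists were chosen with earlier results of these data known. The SGLT and GLUT positions are gene bounds of GENCODE M21 on GRCm38, the assembly of mm10, and the promoter windows are from RefSeq on GRCm38.p6. Low counts limit precision: a gene at 1 CPM rests on about 13 counts in control J.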

Additional observations from a re-analysis of the deposited data

Results flagged for a closer look

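In 32 named genes, 64 groups of 4 libraries were checked for 1 library far from the other 3 (gap over range above Dixon's 95% critical value), and 2 were found, where chance flags about 1 group in 20. No transporter gene was among them. Kcnj1, a thick ascending limb marker, was at 201 CPM in high fat F, against 226 CPM in the nearest other high fat library. Actb was at 1289 CPM in control I, against 1567 CPM in the nearest other control library. Control I also had the lowest Slc2a1 of its diet. Actb was picked as the gene nearest in pattern to Slc2a1, so a library low in both follows from that choice and is no separate observation.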

How the results depend on the processing

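No paired analysis was possible because the replicate letters differ between the diets. With the deposited FPKM by gene symbol, whose denominator includes Rn45s, control J is about halved for all other genes: the median log2 change of all genes moved to 0.14, the genes called fell to 91 (pseudocount 0.1) and 98 (pseudocount 1), and the members called to 0 and 0. There Slc5a9 turned to 0.028 and 0.014, still below that median. With rescaled FPKM, chosen after seeing the data, 1394 genes and the same count of 3 members were called. The genes called ran from 739 to 1528 without 1 library (934, 739 and 908 without high fat A, F and G, and 795 and 801 without control I and J), and were 417 without control J and high fat G, of which 2 were members. The members called ran from 2 to 3 without 1 library. Slc2a5 ran from -0.019 (without control M) to 0.13 without 1 library and passed in none of these fits. No other member changed direction under the 18 alternatives (14 for Slc2a3, which the filters on FPKM and on a mean of 5 CPM left out). Txnip was also lost with rescaled FPKM (adjusted p = 0.055 in limma). Slc2a3, at 15 to 50 counts, is limited by depth.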
